A study of Sus scrofa with 23 samples.

Results

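Lymphocytes carry surface receptors that bone marrow-derived macrophages are not usually defined by, and 4 genes for such receptors were followed here in pig macrophages exposed to lipopolysaccharide (LPS), a cell wall component of Gram-negative bacteria. The genes were IL7R (the receptor chain for interleukin 7), CD2 (an adhesion and costimulatory receptor), and CD3D and CD3E (chains of the CD3 complex of the T cell receptor). They were 4 of 6765 genes named on the array, each read by 1 probe set (a group of short array probes summarised to 1 value) among 23999. The probe sets were found by their gene annotation, and the genes had been picked because IL7R and CD2 differed widely between these arrays and the CD3 genes did not. Their levels over the arrays are therefore described and not tested.

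The interleukin 7 receptor pairs IL7R with the shared cytokine receptor chain IL2RG and signals through the kinases JAK1 and JAK3 to the transcription factors STAT5A and STAT5B. It is best known for sustaining T cells and their precursors, and in humans IL7R has also been described on monocytes stimulated with LPS. CD2 binds CD58 in humans and is a classical marker of T and natural killer cells. The CD3 chains CD3D, CD3E and CD3G and the zeta chain CD247 are needed for the T cell receptor to reach the cell surface and to signal, so cells carrying that receptor are expected to express them. RefSeq genes of Sscrofa11.1, a pig assembly, list CD3E, CD3D and CD3G as direct neighbours in that order, while CD2 stands between PTGFRN and IGSF3.

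The cells were bone marrow cells of Large White x Landrace F1 pigs, cultured with recombinant human CSF1 and labelled as bone marrow-derived macrophages. The labels give 6 unstimulated arrays (0 h), 6 at 2 h, 6 at 7 h and 5 at 24 h of 100 ng/ml LPS from Salmonella enterica serotype minnesota Re 595, from 3 pigs with 2 cultures each per time (pig 3 at 24 h has 1). All cultures, the unstimulated ones included, had received CSF1. Array medians ran from 69.5 to 73.9 intensity units, and the number of arrays limits the precision.

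The labels did not hold up against the arrays. The Y-linked gene EIF1AY was high on 15 arrays (log2 intensities of 8.16 to 9.45) and low on 8 (3.60 to 4.08). For 8 of the 23 arrays this level went against the sex given for the pig. These 8 contradicting arrays are not the same set as the 8 low ones. They were columns 11 to 14, where EIF1AY was high (8.76 to 9.37), and columns 3, 4, 21 and 22, where it was low (3.60 to 3.84). In 11 pairs of arrays each was the other's most similar array over the probe sets other than the 4 described here. All 11 pairs were neighbouring columns of the deposited table, 11 shared the labelled pig and 0 shared the labelled time. Neighbouring columns always carry different labelled times and mostly the same labelled pig, so these counts are not separate observations. Of 22 arrays with a labelled duplicate culture, 0 had that duplicate as the most similar array. An order of columns by time, then pig, then culture was inferred from these data after the levels had been seen. It would put columns 1 to 6 at 0 h, 7 to 12 at 2 h, 13 to 18 at 7 h and 19 to 23 at 24 h. EIF1AY was low in columns 3, 4, 9, 10, 15, 16, 21 and 22 and high in the others. Under the inferred order the low columns would all be pig 2, and no array would go against the labelled sex. The inferred order itself was not tested. No label states that order. Runs of columns are therefore described below by their position in the table, without a time. Comparisons between times are given as labelled, with and without the 8 contradicting arrays. By the labels, columns 1 to 8 came from pig 1, columns 9 to 16 from pig 2 and columns 17 to 23 from pig 3. As labelled, a difference between runs is thus partly or wholly a difference between pigs.

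IL7R differed more between arrays than nearly any other probe set. Its log2 intensity ran from 4.91 to 10.98, a span of 6.07, and 99.8% of the 23999 probe sets had a smaller span. The median probe set spanned 0.84, and 10.4% spanned at least 2. In these bulk cultures, fewer cells of a type and less RNA per cell cannot be told apart. In columns 1 to 6, IL7R had log2 intensities of 4.91, 5.03, 5.65, 4.98, 5.43 and 5.25. In columns 7 to 12 it had 6.74, 6.63, 7.46, 7.07, 8.53 and 8.39. All 6 of these lay above columns 1 to 6, and the values fell into steps by neighbouring pair, lowest in columns 7 and 8 and highest in 11 and 12.

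In columns 13 to 18, IL7R had 10.22, 10.02, 10.11, 10.06, 10.98 and 10.88. In columns 19 to 23 it had 8.96, 8.69, 10.66, 10.36 and 10.16. Columns 13 to 18 all lay above columns 7 to 12, while columns 19 to 23 overlapped columns 13 to 18 and had 1 lower pair, columns 19 and 20. The medians of the 4 runs in order were 5.14, 7.26, 10.16 and 10.16. The difference of medians from columns 1 to 6 was 2.12 log2 units for columns 7 to 12, 5.02 for columns 13 to 18 and 5.02 for columns 19 to 23. The smallest gap between single arrays was 0.98, 4.37 and 3.04 in the same order. For comparison, the median difference in IL7R within the 11 most similar pairs was 0.17, and the largest was 0.67.

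CD2 was also higher in the later columns, by a smaller difference of medians than IL7R in each run. Its log2 intensity ran from 5.18 to 10.45, a span of 5.27, and 99.6% of probe sets had a smaller span. In columns 1 to 6, CD2 had 5.35, 5.18, 5.49, 5.53, 5.54 and 5.63. In columns 7 to 12 it had 5.88, 6.07, 5.99, 6.21, 6.63 and 6.66. The values of columns 7 to 12 all lay above those of columns 1 to 6, but by a smallest gap of only 0.26.

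In columns 13 to 18, CD2 had 7.45, 7.37, 7.87, 7.93, 8.65 and 8.84, all above columns 7 to 12. In columns 19 to 23 it had 6.66, 6.13, 10.45, 10.30 and 9.20. This run was the widest: columns 19 and 20 were close to columns 7 to 12, and columns 21 to 23 were above every other array. The medians of the 4 runs were 5.51, 6.14, 7.90 and 9.20. The difference of medians from columns 1 to 6 was 0.63 for columns 7 to 12, 2.39 for columns 13 to 18 and 3.69 for columns 19 to 23. Within the most similar pairs, the median difference in CD2 was 0.15 and the largest 0.53.

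**Figure D1:**
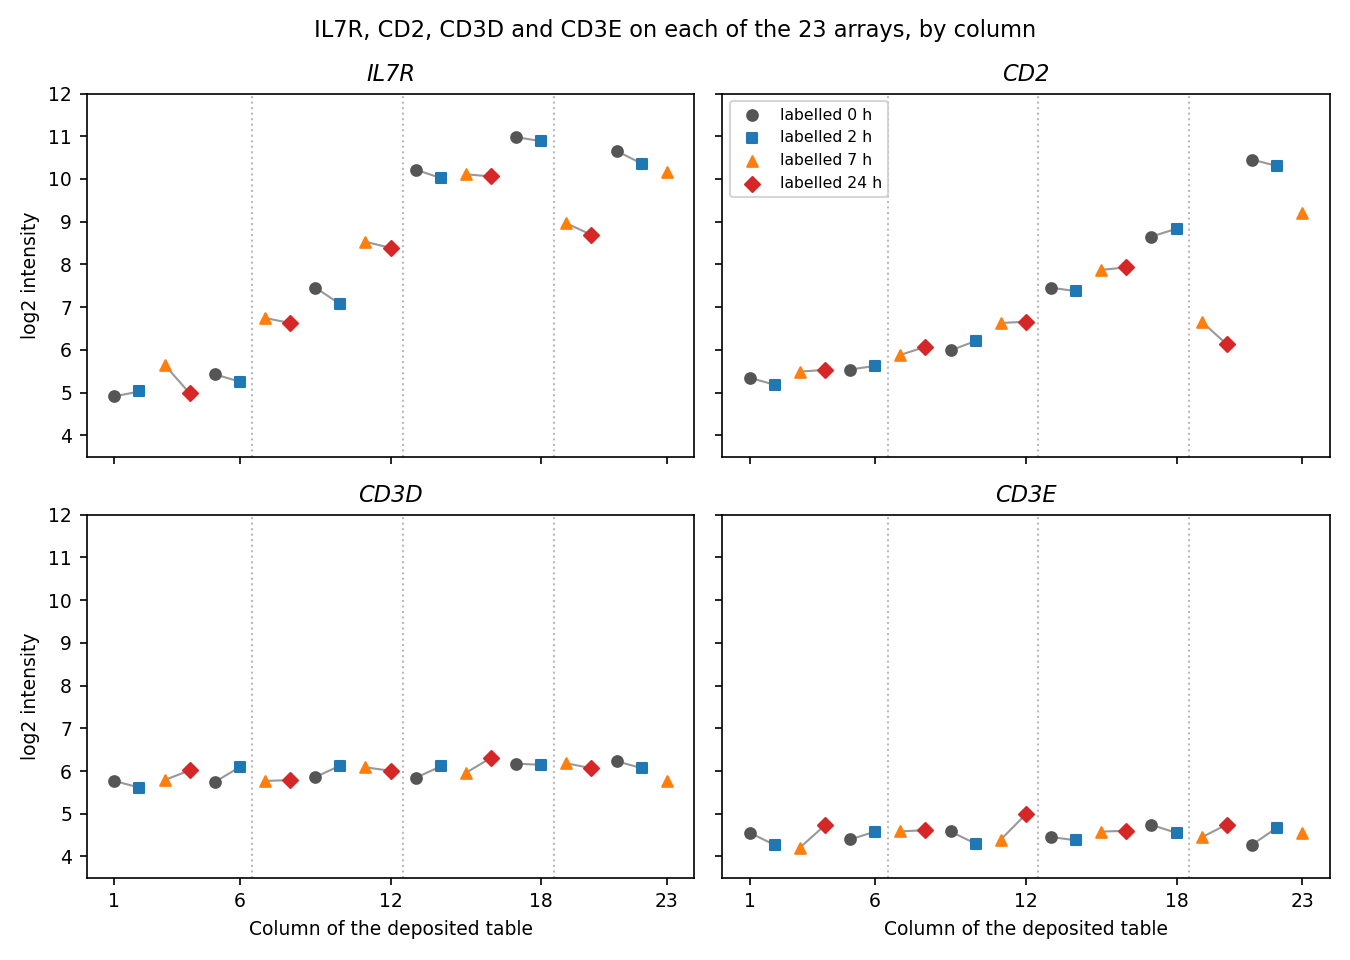
Log2 intensity (vertical) of IL7R, CD2, CD3D and CD3E on the 23 arrays, placed by column of the deposited table (horizontal). Marker shape and colour give the labelled time, grey lines join neighbouring columns 1 and 2, 3 and 4 and so on, and dotted lines separate columns 1 to 6, 7 to 12, 13 to 18 and 19 to 23. IL7R runs from 4.91 to 10.98 and CD2 from 5.18 to 10.45, while CD3D keeps between 5.61 and 6.31 and CD3E between 4.21 and 4.99.

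Runs that do not overlap were common on this array, so their share among all probe sets stands beside these counts. Columns 7 to 12 lay wholly above columns 1 to 6 for 4.55% of probe sets and wholly below for 8.05%. IL7R and CD2 were among those above, and CD3D and CD3E overlapped. Columns 13 to 18 lay wholly above columns 1 to 6 for 11.2% and below for 18.5%, and columns 19 to 23 above for 9.68% and below for 15.3%. IL7R and CD2 were again among those above, and CD3D and CD3E overlapped. Columns 13 to 18 lay above columns 7 to 12 for 9% and below for 12.2%, with IL7R and CD2 above. Columns 19 to 23 lay above columns 13 to 18 for 8.97% and below for 8.11%, and here all 4 genes overlapped. Both steps, columns 7 to 12 above 1 to 6 and columns 13 to 18 above 7 to 12, were present for 1.03% (247 probe sets), with IL7R and CD2 included. Nothing is read from these counts about the 4 genes, since the pattern was the reason for choosing them.

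CD3D, the delta chain of CD3, stayed within a narrow band on every array. Its log2 intensity ran from 5.61 to 6.31, a span of 0.70, and 36.4% of probe sets had a smaller span. It had 5.77, 5.61, 5.79, 6.01, 5.74 and 6.09 in columns 1 to 6, and 5.77, 5.79, 5.86, 6.13, 6.09 and 6.01 in columns 7 to 12. It had 5.84, 6.11, 5.96, 6.31, 6.17 and 6.14 in columns 13 to 18, and 6.18, 6.06, 6.23, 6.07 and 5.76 in columns 19 to 23. Every run overlapped every other run compared, with medians of 5.78, 5.93, 6.13 and 6.07. The difference of 0.35 between the medians of columns 13 to 18 and columns 1 to 6 was no larger than the largest difference within a most similar pair, 0.35, but exceeded the median pair difference of 0.16.

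CD3E, the epsilon chain, likewise showed no run of columns apart from another. Its log2 intensity ran from 4.21 to 4.99, a span of 0.78, and 45% of probe sets had a smaller span. It had 4.56, 4.27, 4.21, 4.73, 4.40 and 4.58 in columns 1 to 6, and 4.59, 4.62, 4.59, 4.30, 4.39 and 4.99 in columns 7 to 12. It had 4.46, 4.38, 4.58, 4.60, 4.74 and 4.55 in columns 13 to 18, and 4.45, 4.75, 4.27, 4.68 and 4.54 in columns 19 to 23. The medians of the 4 runs were 4.48, 4.59, 4.57 and 4.54, and all runs overlapped. The deposited table has no detection call for a probe set, so a level at background and a low steady level of CD3D or CD3E were not separated. The largest difference of medians from columns 1 to 6 was 0.11 for CD3E, within its median difference of 0.29 between similar arrays.

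**Figure D2:**
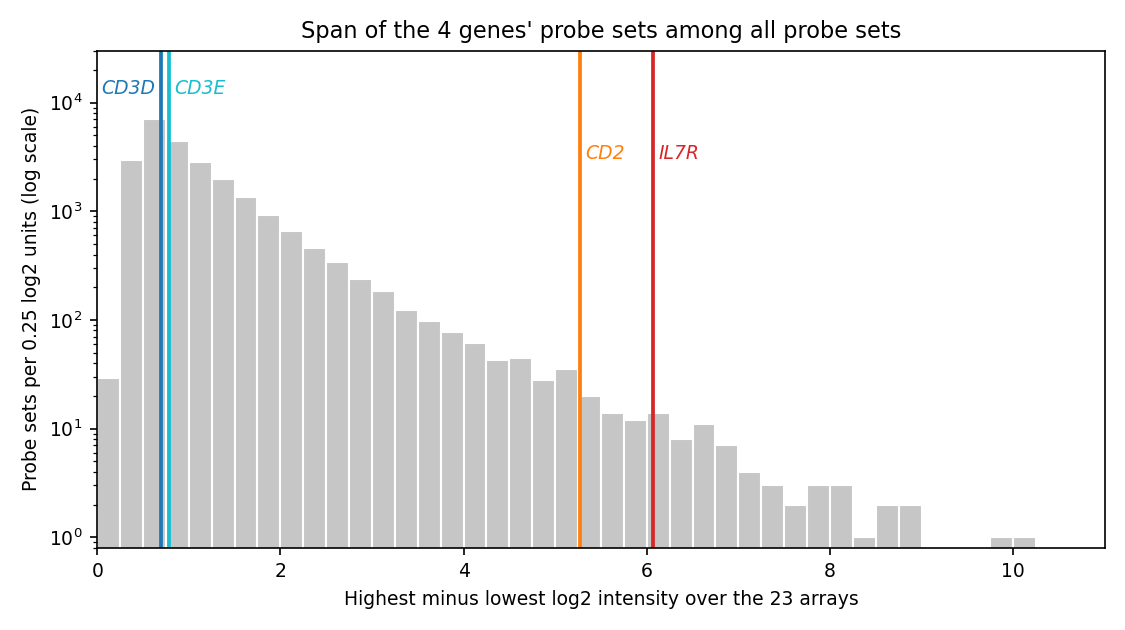
Number of probe sets (vertical, log scale) by the highest minus the lowest log2 intensity over the 23 arrays (horizontal, in steps of 0.25), for all 23999 probe sets. The lines mark CD3D at 0.70 and CD3E at 0.78, near the bulk of the array, and CD2 at 5.27 and IL7R at 6.07, in its upper tail.

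Over the 23 arrays IL7R and CD2 correlated with each other at r = 0.868 (Spearman's rho = 0.952). IL7R correlated with CD3D at r = 0.572 (rho = 0.538) and with CD3E at r = 0.152 (rho = 0.0919). CD2 correlated with CD3D at r = 0.493 (rho = 0.570) and with CD3E at r = 0.0730 (rho = 0.118). CD3D and CD3E, which belong to the same complex, correlated at only r = 0.167 (rho = 0.0791). These values describe the 23 arrays, of which 22 form similar pairs, and carry no test. TNF, the cytokine most used to follow macrophage activation, had a different course over the columns, with run medians of 5.60, 12.50, 11.09 and 7.84. Like CD2, it was lower in columns 19 and 20 (6.20 and 6.33) than in columns 21 to 23 (10.66, 10.39 and 7.84).

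Compared by labelled time, 0 of the 4 genes passed the limma test. IL7R had a lowest, median and highest log2 intensity of 4.91, 8.84 and 10.98 at the labelled 0 h and 5.03, 8.54 and 10.88 at 2 h. It had 5.65, 8.75 and 10.16 at 7 h and 4.98, 8.39 and 10.06 at 24 h. The 4 labelled groups overlapped. Means over pigs were 8.28 ± 2.87 at 0 h, 8.10 ± 2.77 at 2 h, 8.36 ± 1.88 at 7 h and 7.91 ± 1.84 at 24 h (SD, n = 3 labelled pigs). The difference from 0 h was -0.17 at 2 h, 0.08 at 7 h and -0.37 at 24 h, each with an SE of 0.55.

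CD2 also overlapped among all labelled times. Its lowest, median and highest values were 5.35, 6.72 and 10.45 at 0 h, 5.18, 6.79 and 10.30 at 2 h, 5.49, 6.64 and 9.20 at 7 h, and 5.53, 6.13 and 7.93 at 24 h. Means over pigs were 7.24 ± 2.10, 7.25 ± 2.12, 6.96 ± 1.15 and 6.41 ± 0.78 in the same order (SD, n = 3 labelled pigs). The difference from 0 h was 0.02 at 2 h, -0.28 at 7 h and -0.83 at 24 h, each with an SE of 0.74.

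CD3D averaged 5.94 ± 0.24 at 0 h, 6.03 ± 0.15 at 2 h, 5.92 ± 0.13 at 7 h and 6.04 ± 0.13 at 24 h (SD, n = 3 labelled pigs). CD3E ran from 4.27 to 4.74 at 0 h, 4.27 to 4.68 at 2 h, 4.21 to 4.59 at 7 h and 4.60 to 4.99 at 24 h. The labelled 24 h overlapped 0 h and 2 h, and its lowest value (4.601) only just cleared the highest at 7 h (4.587). The share of all probe sets with such a gap between labelled times was not counted, so nothing is read from it. CD3E averaged 4.50 ± 0.02, 4.46 ± 0.14, 4.46 ± 0.05 and 4.74 ± 0.06 in the same order. The largest difference for these genes was that of CD3E between 24 h and 0 h, 0.24 ± 0.07 (SE), with an unadjusted limma p of 0.0121 and an adjusted p of 0.914.

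Over the 4 genes and the 4 comparisons (2 h, 7 h and 24 h each against 0 h, and a joint test of all times), the adjusted limma p lay between 0.914 and 1, and 0 of 4 genes passed in any comparison. At an unadjusted p under 0.05, CD3E alone passed, at 24 h against 0 h and over all times. Of all 23999 probe sets, 0.0125% were called at 2 h, 0 at 7 h, 0.00417% at 24 h and 0.00833% over all times. Of all probe sets, 521, 754, 986 and 694 had an unadjusted p under 0.05 in the same order.

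Without the 8 arrays that contradict the labelled sex, 0 of 4 genes passed the limma test as well. The differences from 0 h at 2 h, 7 h and 24 h were then -0.17, 0.94 and 0.59 for IL7R, and 0.12, 0.54 and 0.02 for CD2. They were 0.11, -0.03 and 0.125 for CD3D, and -0.18, -0.05 and 0.05 for CD3E. The sign of IL7R at 24 h and of CD2 at 7 h and 24 h was thus opposite to that with all arrays. Leaving out pig 3 also gave 0 calls, but there the unadjusted p was under 0.05 for 4 of 4 genes at 24 h, with differences of 0.51 for IL7R and 0.47 for CD2. In that fit 1920 of 23999 probe sets had an unadjusted p under 0.05 at 24 h, against 986 with all pigs. Given the failed check of the labels, these comparisons describe the labels and show neither an effect of LPS on these genes nor its absence.

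**Figure D3:**
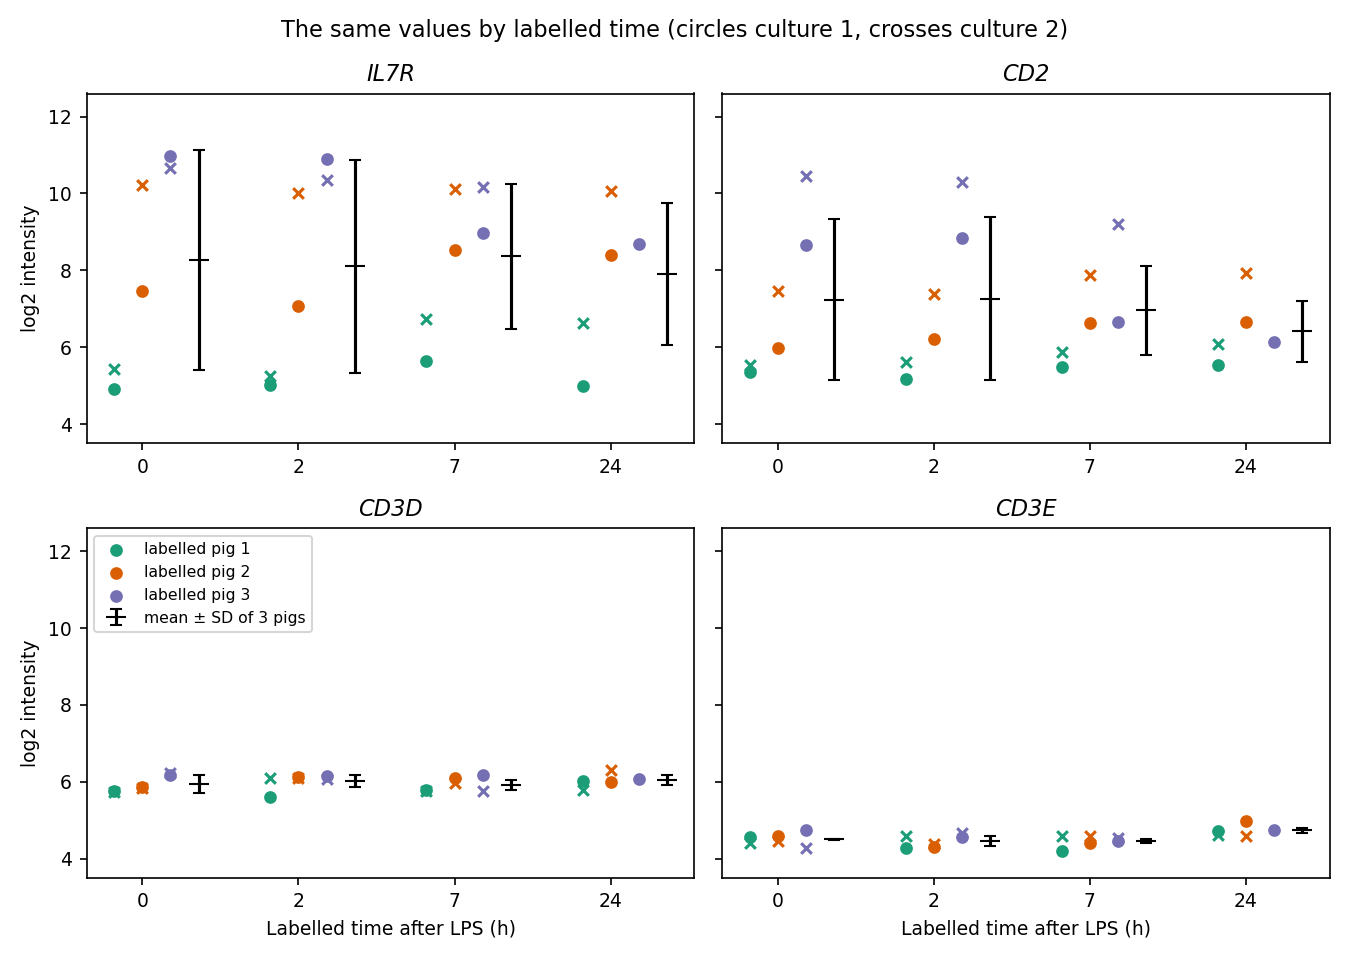
Log2 intensity (vertical) of the 4 genes by labelled time after LPS (horizontal, hours), with circles for culture 1 and crosses for culture 2 and colours for the labelled pig. Black bars are the mean ± SD of 3 labelled pigs. The labelled duplicates of IL7R differ by up to 2.96 and those of CD2 by up to 2.54, while every later time overlaps 0 h for each gene.

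Between labelled duplicate cultures (11 pairs), the median difference was 1.20 for IL7R, with 2.96 as the largest, and 1.24 for CD2, with 2.54 as the largest. In pairs of similar arrays the medians were 0.17 for IL7R and 0.15 for CD2. For CD3D the median difference was 0.08 between labelled duplicates and 0.16 in similar pairs, but the largest was 0.48 between labelled duplicates and 0.35 in similar pairs. For CD3E the median was 0.16 between labelled duplicates and 0.29 in similar pairs, and the largest was 0.47 and 0.60 in the same order.

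Other genes of interleukin 7 signalling also lay higher in the later columns. Of 22 genes listed for this pathway and for related cytokine receptors, 13 were measured, and 12 of them besides IL7R. IL2RA and IL4R, chains of receptors for other interleukins, are among the 12. Columns 7 to 12 lay wholly above columns 1 to 6 for 7 of the 12, columns 13 to 18 for 11 and columns 19 to 23 for 9, with 0 below, beside 4.55%, 11.2% and 9.68% of all probe sets. Each gene was counted by its brightest probe set only. In columns 19 to 23, another probe set of each of STAT5A, STAT5B, JAK1, SOCS1 and IL4R overlapped columns 1 to 6. For JAK1 and SOCS1 another probe set did so in columns 7 to 12 as well. In columns 13 to 18 the other probe sets of STAT5A, JAK1, SOCS1 and IL4R also lay above. Their median span was 1.75, against 0.96 over 6765 genes. As labelled, 0 of 12 passed the limma test in any comparison. The list was chosen with earlier results of these data known, so the counts are descriptions.

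SOCS1, a feedback inhibitor of JAK kinases, had the widest span of these genes, 5.65, with 8.74 to 9.12 in columns 13 to 18, against 4.07 to 4.83 in columns 1 to 6. STAT5A, a transcription factor activated by IL7R, had 7.36 to 7.86 in columns 1 to 6, 8.69 to 9.82 in columns 7 to 12, 9.79 to 10.63 in columns 13 to 18 and 7.94 to 9.07 in columns 19 to 23. IL2RA, the high-affinity chain of the interleukin 2 receptor and another lymphocyte marker, had 6.94 to 7.48 in columns 13 to 18, against 4.47 to 5.34 in columns 1 to 6. In columns 19 to 23 IL2RA had 5.27 to 6.69, which overlapped columns 1 to 6.

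JAK3, the kinase bound to IL2RG, had 8.23 to 9.40 in columns 13 to 18, against 7.24 to 7.91 in columns 1 to 6. IL2RG itself had 8.81 to 9.69 in columns 13 to 18, against 7.81 to 8.79 in columns 1 to 6. IL7, the ligand, had 3.80 to 4.23 in columns 1 to 6, 4.65 to 5.43 in columns 13 to 18 and 4.63 to 5.51 in columns 19 to 23. Columns 13 to 18 and 19 to 23 thus lay above columns 1 to 6 for the receptor, its partner chain, the ligand and the kinase. For IL2RG the lowest value in columns 13 to 18 (8.81) only just cleared the highest in columns 1 to 6 (8.79). IL7 was dim, and without a detection call a low level and background were not separated for it. STAT5B was the exception at columns 13 to 18, where its brighter probe set (7.97 to 8.26) overlapped columns 1 to 6 (7.90 to 8.31), and lay above them only in columns 19 to 23 (8.89 to 9.69). Its other probe set disagreed, with 6.30 to 7.18 in columns 13 to 18, below the 7.34 to 7.68 of columns 1 to 6.

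Few genes linked to CD2 were measured. Of 16 listed, 5 were measured, 4 of them besides CD2. FYN, a kinase that can act downstream of CD2, had 8.10 to 8.94 in columns 1 to 6, 10.56 to 10.89 in columns 13 to 18 and 9.71 to 10.01 in columns 19 to 23. CD58, the ligand in humans, had 8.87 to 9.84 in columns 7 to 12, against 8.04 to 8.46 in columns 1 to 6, and overlapped columns 1 to 6 in the later runs. CD59, a complement inhibitor also studied as a CD2 partner, was lower in columns 19 to 23 (5.46 to 6.38) than in columns 1 to 6 (7.21 to 7.66), though its other probe set overlapped, with 4.53 to 4.88 in columns 19 to 23 and 4.85 to 5.69 in columns 1 to 6. LCK, the T cell kinase that acts with CD2, stayed between 4.26 and 4.77 on all arrays. As labelled, 0 of these 4 genes passed the limma test.

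Most of the other T cell receptor genes, like CD3D and CD3E, had no run of columns above columns 1 to 6. Of 20 listed genes, 12 were measured, 10 of them besides CD3D and CD3E, with a median span of 0.70. CD3G, the gamma chain of CD3, ran from 4.13 to 4.79, and CD247, the zeta chain, from 3.99 to 4.54. The coreceptor genes CD4 (3.68 to 4.42), CD8A (4.11 to 5.09) and CD8B (4.91 to 5.47) and the inhibitory receptor gene CTLA4 (3.77 to 4.19) also overlapped between columns 1 to 6 and every later run. So did LAT, an adaptor of the T cell receptor, which ran from 6.93 to 7.94. LAT was not flat among the later runs. Its columns 19 to 23 (7.42 to 7.94) lay above its columns 13 to 18 (6.96 to 7.17), beside 8.97% of all probe sets.

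The exceptions were LCP2, an adaptor also used by myeloid cells, and PTPRC, the pan-leukocyte gene for CD45. Columns 13 to 18 lay above columns 1 to 6 for these 2 of the 10 genes, beside 11.2% of all probe sets, and columns 19 to 23 for 1 of the 10 (LCP2), beside 9.68%, so the counts were near the shares of the whole array. LCP2 had 10.21 to 10.44 in columns 1 to 6, 11.65 to 12.04 in columns 13 to 18 and 10.89 to 11.76 in columns 19 to 23. PTPRC had 8.91 to 9.40 in columns 13 to 18, against 7.77 to 8.46 in columns 1 to 6. As labelled, 0 of the 10 genes passed the limma test.

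**Figure D4:**
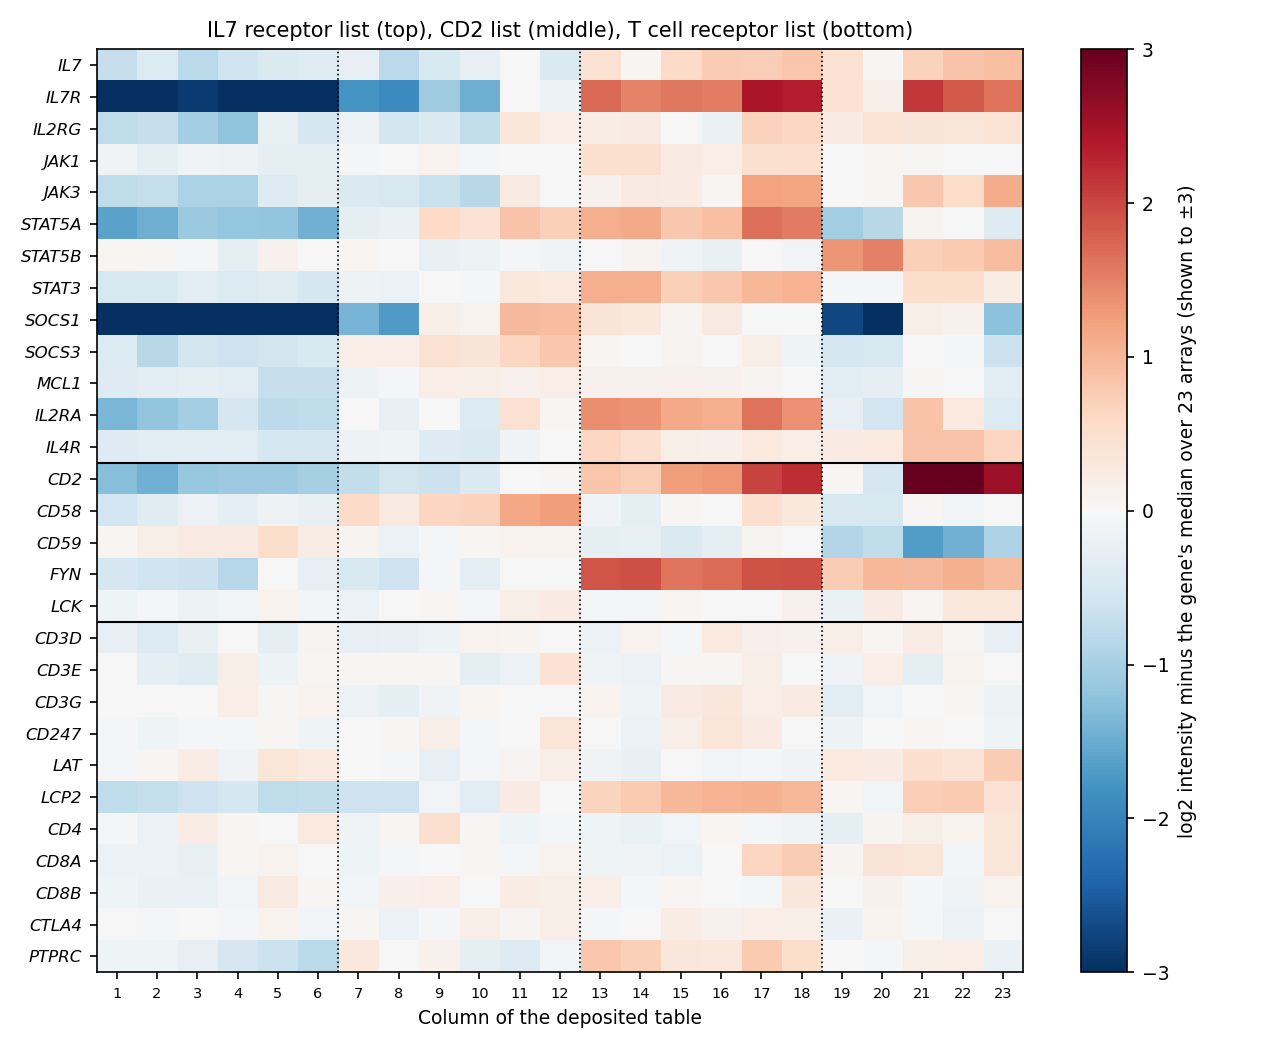
Log2 intensity of the measured genes of 3 lists minus each gene's own median over 23 arrays (colour, shown to ±3), by column of the deposited table (horizontal). Horizontal lines separate the interleukin 7 receptor, CD2 and T cell receptor lists, LCK is drawn with the CD2 list, and dotted lines separate columns 1 to 6, 7 to 12, 13 to 18 and 19 to 23. IL7R, STAT5A and CD2 are blue in columns 1 to 6 and red in columns 13 to 18, while CD3D, CD3E, CD3G, CD247 and LCK stay near white.

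Markers of the cell types that such cultures could also hold are given for the whole lists. Of 16 T cell markers 9 were measured, and their summed intensity was 340.4 to 405.4 in columns 1 to 6, 346.0 to 406.1 in columns 7 to 12, 337.8 to 390.0 in columns 13 to 18 and 393.8 to 470.0 in columns 19 to 23. That sum was led by LAT, the brightest of the 9 on every array, with run medians of 7.32, 7.16, 7.09 and 7.58. For 0 of the 7 T cell markers besides CD3D and CD3E did a later run lie above columns 1 to 6, beside 4.55%, 11.2% and 9.68% of all probe sets for the 3 later runs, so a count of 0 among 7 is near those shares. CD3G and CD247, which define T cells together with CD3D and CD3E, overlapped throughout. RMA values are never 0, so no marker is listed at 0. Of 13 natural killer cell markers 4 were measured (KLRK1, PRF1, GNLY and NCAM1), with sums of 136.1 to 157.8, 135.3 to 172.3, 145.6 to 168.3 and 139.5 to 156.2 in the 4 runs in order. Among these 4 only GNLY had a run above columns 1 to 6, beside 11.2% of all probe sets for that run, with 6.00 to 6.32 in columns 13 to 18 against 5.69 to 5.96 in columns 1 to 6.

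Among 4 measured B and plasma cell markers of 12, CD79B, part of the B cell receptor, ran from 4.10 to 4.51 and TNFRSF17, a plasma cell receptor, from 4.42 to 5.00. JCHAIN, which joins immunoglobulin chains, had 7.06 to 9.23 with all runs overlapping columns 1 to 6. Their sum, 470.3 to 842.0, 2004.7 to 5794.7, 5180.0 to 7782.0 and 832.3 to 2545.9 in the 4 runs, was led by CD40, a costimulatory receptor also carried by macrophages, which ran from 7.28 to 12.85. Of 6 innate lymphoid and mast cell markers 3 were measured, with sums of 424.6 to 589.6, 544.4 to 717.7, 391.7 to 563.4 and 399.6 to 595.9 in the 4 runs. KIT, the stem cell factor receptor, had the widest span of these (2.71), and its later runs overlapped columns 1 to 6.

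Of 10 dendritic cell markers 3 were measured, with sums of 1263.1 to 1623.8, 6148.4 to 8380.4, 4507.3 to 7079.6 and 2339.0 to 5554.5 in the 4 runs. CCR7, a chemokine receptor that guides cells to lymph nodes, had 5.98 to 6.32 in columns 1 to 6, 6.77 to 7.46 in columns 13 to 18 and 6.55 to 7.92 in columns 19 to 23. CD83, a maturation marker, had 12.06 to 12.73 in columns 13 to 18, against 10.08 to 10.52 in columns 1 to 6. XCR1, a chemokine receptor of cross-presenting dendritic cells, ran from 6.52 to 7.23. All 3 lay above columns 1 to 6 in columns 19 to 23, as IL7R and CD2 did, beside 9.68% of all probe sets. The part of these markers and of CD40 in the IL7R and CD2 levels was not tested.

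Of 8 granulocyte markers 4 were measured, with sums of 1171.5 to 3644.9, 1162.0 to 2945.9, 2079.4 to 5671.2 and 13010.0 to 15165.9 in the 4 runs. That sum was led by S100A9, a calcium-binding protein of granulocytes and monocytes, which ran from 9.41 to 13.73 and lay above columns 1 to 6 only in columns 19 to 23. ELANE, the neutrophil elastase gene, went the other way, with 5.05 to 5.99 in columns 19 to 23, against 6.89 to 8.10 in columns 1 to 6. S100A8 and S100A12, relatives of S100A9, overlapped columns 1 to 6 in every later run. Of 12 macrophage markers 7 were measured, with sums of 24345.8 to 27737.2, 25395.8 to 28491.1, 27249.5 to 30460.2 and 29017.1 to 31887.4, and 4 of the 7 lay above columns 1 to 6 in columns 19 to 23, beside 9.68% of all probe sets. CD14, the LPS coreceptor, had 9.12 to 10.28 in columns 19 to 23, against 7.13 to 8.59 in columns 1 to 6. CTSB, a lysosomal protease that led the macrophage sum, kept between 14.38 and 14.57. SPI1, the myeloid transcription factor PU.1, had a narrow range but lay above columns 1 to 6 (9.57 to 9.76) in both last runs. It had 10.07 to 10.31 in columns 13 to 18 and 9.93 to 10.12 in columns 19 to 23, beside 11.2% and 9.68% of all probe sets. ITGAM, MRC1 and CTSB overlapped columns 1 to 6 in every later run, and ITGAM was dim throughout (4.39 to 5.03). CD163 had run medians of 9.37, 9.50, 8.27 and 10.52. Its lowest value in columns 19 to 23 (9.8570) barely cleared its highest in columns 1 to 6 (9.8568). CD86, also among the 4, had 11.24 to 11.62 in columns 19 to 23, against 9.58 to 10.07 in columns 1 to 6. The part of the granulocyte and macrophage marker levels in the IL7R and CD2 levels was not tested.

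The genes most like IL7R over the 23 arrays were found among 3211 genes spanning at least 1 log2 unit. They were PPA1, an inorganic pyrophosphatase (r = 0.992, rho = 0.980), STK17A, a serine/threonine kinase (r = 0.987, rho = 0.961), MOV10, an RNA helicase (r = 0.984, rho = 0.940), CD47, a surface ligand that restrains phagocytosis (r = 0.981, rho = 0.959), and MORC3, a nuclear ATPase (r = 0.980, rho = 0.947). PPA1 had run medians of 8.94, 10.35, 12.46 and 12.71, and CD47 had 11.10, 11.89, 13.05 and 12.71. The genes running most opposite to IL7R were PLEKHA8 (r = -0.980), the palmitoyltransferase gene ZDHHC9 (r = -0.979) and PITHD1 (r = -0.965).

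The genes most like CD2 were UPB1, an enzyme of pyrimidine breakdown (r = 0.969, rho = 0.957), CCDC50 (r = 0.949, rho = 0.963), CCR7 (r = 0.947, rho = 0.891), PSMF1, a proteasome inhibitor (r = 0.942, rho = 0.899), and RFLNA (r = 0.936, rho = 0.917). UPB1 had run medians of 5.05, 5.22, 6.44 and 7.37, and its median too was highest in columns 19 to 23. Most opposite to CD2 were GPX4, which reduces lipid peroxides (r = -0.980), AMZ2 (r = -0.960) and PRKACB, a catalytic subunit of protein kinase A (r = -0.959). No gene was on both lists, and these correlations are a description over 23 arrays that share pairs.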

How the data were processed

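The authors deposited 1 intensity value per probe set and array on a linear scale. Per the submitters' processing notes they used affy and RMA, with versions not given in the sources used here. RMA subtracts background and normalizes between arrays, which can compress differences of dim probe sets. The log2 of each deposited intensity was taken, with no further normalization, and 124 array controls were left out. Of the remaining probe sets, 10069 had a single annotated gene, 198 had several and 13732 are unnamed here. For a gene with several probe sets, the one with the highest mean was used.

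Groups are those of the labels. After averaging duplicate cultures, limma 3.58.1 (R 4.3.3) was fitted over all 23999 probe sets with terms for time and pig (6 residual degrees of freedom). Adjusted p-values (Benjamini-Hochberg, over the same probe sets) under 0.05 were called. The pig term follows the series description, by which the same animals supplied every time. Since labelled pigs follow the column order, that term also takes up part of the differences between runs of columns. Same-pig deviations from the means of each labelled time had correlations between 0.27 and 0.97. The highest, 0.87 to 0.97, were for 2 h against 0 h, which the labels put in neighbouring columns, the most similar arrays. These correlations rest on the labels, so they cannot show that animals were paired across times. The design assumed log2 values, so the conversion was the only change. The fit was tested on simulated data with known changes, no pig effect and a spread capped at the median over probe sets. That test does not show whether changes in probe sets as variable as IL7R and CD2 would be found.

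The 4 genes and all lists were chosen with earlier results of these data known. Besides these genes, the rule for named genes took the 5 most and 3 least correlated genes of IL7R and CD2, up to 4 of the widest genes per list with its defining markers, EIF1AY and TNF. Any other gene named was chosen after its values were seen. Alternatives covered the pig term, unaveraged arrays, dim probe sets, renormalization, arrays against their labelled sex and each pig left out. No sequences or coordinates were used here.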

Additional observations from a re-analysis of the deposited data

Results flagged for a closer look

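Among 16 combinations of the 4 genes and a labelled time, 1 held a lone low array. About 0.8 such cases would arise by chance if the labelled groups were right. The labels failed the check above, so a labelled group may mix unlike arrays and nothing is read from this count. The array labelled 2 h of pig 1, culture 1 had a CD3D log2 intensity of 5.61, against 6.07 to 6.14 on the other 5 arrays labelled 2 h.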

How the results depend on the processing

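In the limma fits, 0 of 4 genes were called in each of the 4 comparisons as labelled under all 8 alternatives, with adjusted p from 0.383 to 1; with dim probe sets left out only IL7R and CD2 remained to be tested. The fit with no replicate block also gave 0 calls among the 4 genes, so the pairing by labelled pig changed no call. Without the 8 arrays against the labelled sex, the CD2 difference was 0.54 at 7 h and 0.0171 at 24 h and the IL7R difference 0.59 at 24 h, each opposite in sign to the value with all arrays. Leaving out 1 pig gave IL7R differences of -0.39 to 0.755 at 7 h and -0.87 to 0.51 at 24 h, and CD2 differences of -0.0111 to 0.0435 at 2 h, -0.69 to 0.39 at 7 h and -1.53 to 0.47 at 24 h. The positive values at 7 and 24 h came without pig 3. The same gave -0.12 to 0.0279 for CD3E at 2 h and -0.10 to 0.10 for CD3D at 7 h. The cause was not tested.

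The count over all probe sets was 3, 0, 1 and 2 for 2 h, 7 h and 24 h against 0 h and any time. It became 30, 0, 15 and 34 with 23 unaveraged arrays, 2, 0, 2 and 3 with no replicate block, 0, 0, 0 and 1 with quantile normalization, 0, 1, 3 and 1 without the 8 arrays, and 0 in all without any 1 pig. Without its highest and lowest array, the span was 4.96 for CD2, 0.49 for CD3D and 0.48 for CD3E, by construction smaller. Each of the 4 genes had 1 probe set, so no other could replace it. Quantile normalization moved no median of a run beyond its spread and changed no overlap with columns 1 to 6.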
